A study of Mus musculus with 16 samples.

Results

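The genes described here are 10 components of the Notch signalling pathway, the transcriptional repressors Hes1, Hes5, Hey1, Hey2 and Heyl, the feedback proteins Nrarp and Dtx1, the ligand Dll1, the receptor Notch1 and the protease subunit Psen2. They were taken by gene symbol, with every annotated probe, from 19057 genes on a mouse Illumina bead array, of which 10624 were measured. The genes were picked with the difference between HeCo and wild-type brain already known, in particular the low Hes5 and Hes1 signals in HeCo. Their own differences are therefore given as a description and carry no test. All 10 genes passed the filter for detected probes, through 12 of their 13 probes, and Heyl passed it mainly through HeCo arrays.

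The tissue was embryonic mouse brain, taken at embryonic day 18, and both groups had the strain background NOR/CD-1. The groups were HeCo mutants (8 arrays) and wild-type controls (8 arrays). In HeCo mice the microtubule-binding protein EML1 is lost through a spontaneous mutation, and part of the cortical neurons settle in the white matter as a heterotopia. The labels name no part of the brain and do not say that each array came from a separate animal, so errors measure the spread between these arrays.

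In Notch signalling a ligand of the Delta or Jagged family on one cell binds a Notch receptor on its neighbour. The receptor is then cut, last by gamma-secretase, and its intracellular domain joins the DNA-binding protein RBPJ in the nucleus and switches on the Hes and Hey genes. In the embryonic brain HES1 and HES5 repress proneural genes and keep radial glia, the neural progenitors along the ventricle, from turning into neurons.

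Mean deposited signal per array ran from 375 to 598, and 17694 to 19553 of 45281 probes were detected above the negative control beads. As a check of the labels, the signal of 1 Eml1 probe exceeded background on no HeCo array (0 of 8) but on every wild-type array (8 of 8). The other Eml1 probe had the opposite pattern, on 8 of 8 HeCo arrays against 0 of 8 wild-type arrays. Neuronal markers were detected on all 16 arrays for 8 of 8 measured genes. HeCo 7 and HeCo 16 stood apart. Their mean log2 level over 16 measured markers of diencephalon, midbrain and hindbrain differed from the wild-type mean by -2.36 and -2.08, whereas the other 6 HeCo arrays differed by -0.21 to 0.05. The wild-type arrays themselves ran from -0.54 (wild type 3) to 0.29 (wild type 12). Values without these 2 arrays are given for every member, and for other named genes and printed list medians where they turned sign or moved by over 1.5 times.

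Across the 10 members, 7 had a lower and 3 a higher mean in HeCo. The median log2 difference (HeCo minus wild type) was -0.09, against -0.00515 over all genes tested, and it was -0.05 without HeCo 7 and HeCo 16. Hes5 and Hes1 differed most, by -0.49 and -0.37. Psen2 differed by -0.26 and Nrarp by -0.20, and Hey1, Hey2, Dtx1, Dll1 and Notch1 lay between -0.10 and 0.11. Heyl had a higher mean in HeCo but was near background, and its size cannot be ranked. None of the 10 members passed an adjusted p of 0.05 over all genes (limma, Benjamini-Hochberg), where 0.0565% of genes did (0.0377% higher and 0.0188% lower in HeCo), and neither did any of their 12 probes over all probes, where 0.0863% did. At an unadjusted p under 0.05 there were 4 members lower and 1 higher in HeCo, against 3.37% and 3.85% of genes (7.22% in either direction). As the members were chosen on this contrast, nothing is read from these counts. In brain tissue as a whole, fewer cells of a type and less RNA per cell cannot be told apart.

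**Figure D1:**
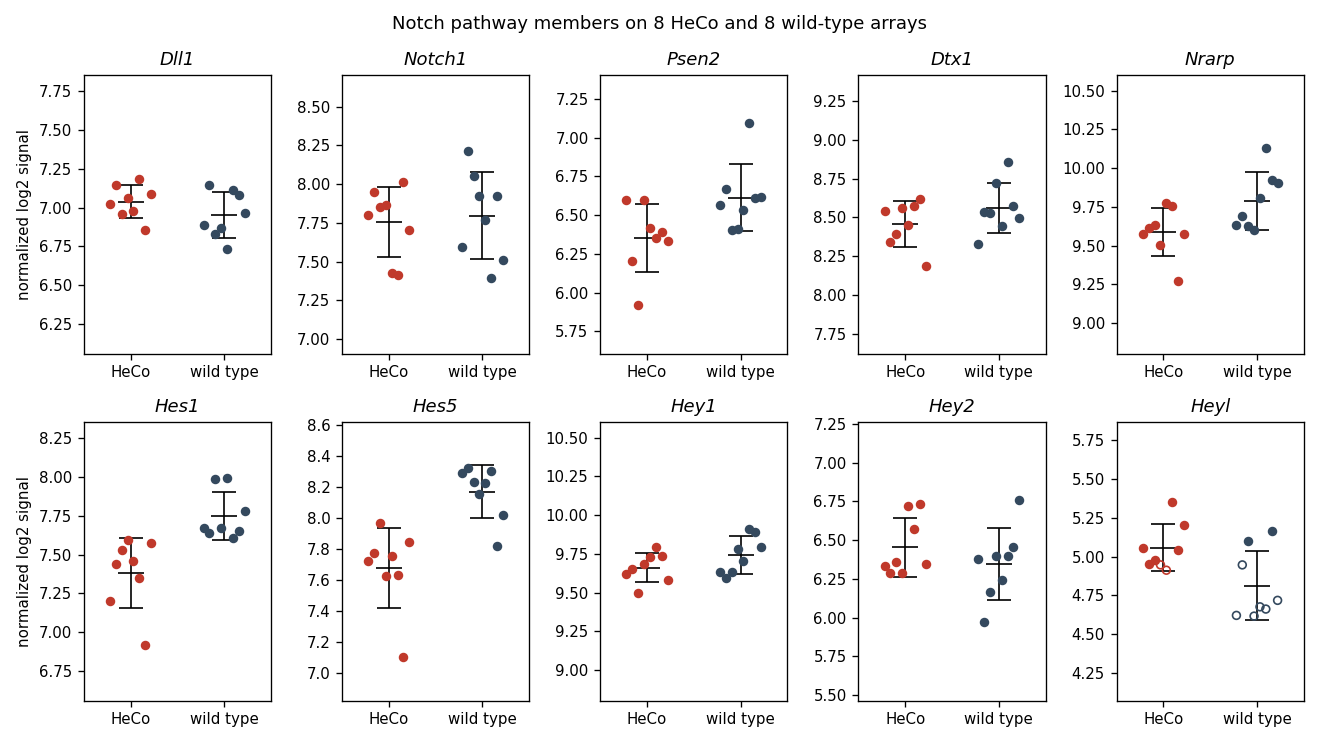
Normalized log2 signal of the probe that stands for each member (vertical axes, each spanning the same log2 range) on 8 HeCo (red) and 8 wild-type arrays (dark blue), with bars for the mean and SD; open circles are arrays where the probe was not detected. Hes1 lay lower on all HeCo arrays, by a narrow gap. Hes5, Psen2 and Nrarp overlapped in part, with 6, 5 and 4 of 8 HeCo arrays below every wild-type array. The other members overlapped over more of their range.

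Hes5, a repressor confined largely to neural progenitors in the embryonic brain, is represented by 2 probes, both detected on all 16 arrays. The first probe (ILMN_1253414) had a normalized log2 signal of 7.10 at the lowest, 7.74 at the median and 7.96 at the highest on HeCo arrays, against 7.82, 8.23 and 8.32 on wild-type arrays. Of the HeCo arrays 6 of 8 lay below every wild-type array, and HeCo 15 was the lowest of all. The means were 7.68 ± 0.26 (SD, n = 8) in HeCo and 8.17 ± 0.17 (SD, n = 8) in wild type, a difference of -0.49 (SE 0.10), or 1.41-fold lower in HeCo. The second probe (ILMN_2624153) ran from 6.72 over a median of 7.39 to 7.43 in HeCo, against 7.51, 7.76 and 7.95 in wild type. Here all 8 HeCo arrays lay below all wild-type arrays, and the difference was -0.48 (SE 0.10). Both probes target the same transcript, so they repeat the measurement on the same RNA and are no second set of samples. In the signals as deposited, before normalization, the first probe read 224, 274 and 301 at the lowest, median and highest in HeCo, against 290, 333 and 399 in wild type. Both probes overlapped between the groups at that stage, and HeCo 15, at 273 on the first probe, was not the lowest HeCo array.

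Hes1, the repressor whose loss in mice depletes progenitors and brings early neurons, is represented by 1 probe (ILMN_1247691). Its log2 signal was 6.92, 7.45 and 7.59 at the lowest, median and highest on HeCo arrays, against 7.60, 7.67 and 8.00 on wild-type arrays. HeCo 15 was again the lowest array after normalization, but not in the signals as deposited (248, with a HeCo median of 233). The groups did not overlap after quantile normalization, but only by the gap between 7.59 and 7.60, and they overlapped when arrays were scaled to a common median instead (highest HeCo array 7.59, lowest wild-type array 7.57). The means were 7.38 ± 0.23 (SD, n = 8) in HeCo and 7.75 ± 0.16 (SD, n = 8) in wild type, a difference of -0.37 (SE 0.09), or 1.29-fold lower in HeCo. Hes1 was the only member whose groups did not overlap on the probe that stands for the gene; among all genes 0.0471% did not overlap with HeCo lower. Over probes this held for 2 of 12, the Hes1 probe and the second Hes5 probe, against 0.0486% of all probes. For 4 members (Hes1, Hes5, Nrarp and Psen2) all 8 HeCo arrays lay below the wild-type mean, against 1.88% of genes.

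Without HeCo 7 and HeCo 16 the differences were -0.57 for Hes5 and -0.42 for Hes1. In that setting Hes5 was past the threshold (limma adjusted p = 0.0298, against 0.0775 over 16 arrays; 0.0178 to 0.999 over 30 settings), among 8 genes in place of 6, and Hes1 was not (limma adjusted p = 0.264). As the genes were chosen on this contrast, these p-values support nothing. Without HeCo 15 they were -0.41 and -0.30. The labels number the arrays in 2 ways, and each way splits them into sets of 8 with 4 HeCo and 4 wild-type arrays. Title numbers run in blocks by genotype, as wild type 1 to 4, HeCo 5 to 8, wild type 9 to 12 and HeCo 13 to 16. What these blocks may stand for cannot be told apart from genotype within either set. By title number Hes5 differed by -0.48 and -0.51 within numbers 1 to 8 and 9 to 16, and Hes1 by -0.30 and -0.43. By description number Hes5 differed by -0.38 and -0.61, and Hes1 by -0.28 and -0.46. All of these had the same sign as over 16 arrays. The sets are parts of the arrays on which the genes were chosen, so this is no repeat of the result. The first principal component of the deviations from the group means, which held 23.1% of their variance, had nearly the same mean score in both groups (difference 0.0356 SD, HeCo minus wild type), and with this score as a covariate the difference of Hes5 was -0.50 and that of Hes1 -0.37.

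**Figure D2:**
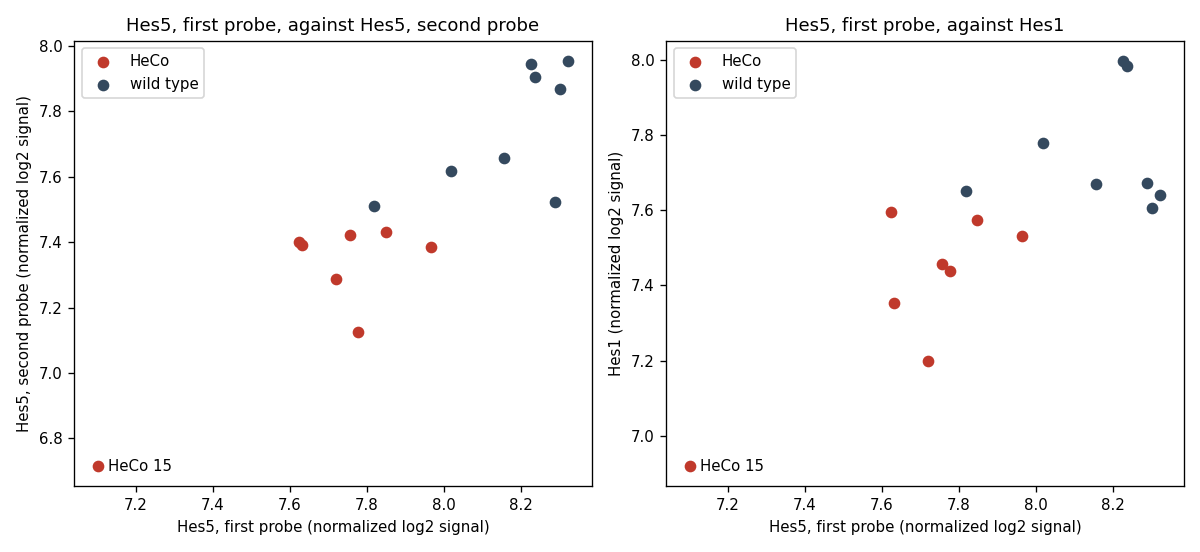
Normalized log2 signal of the first Hes5 probe (horizontal axes) against the second Hes5 probe (left) and Hes1 (right), 1 point an array, with 8 HeCo arrays in red and 8 wild-type arrays in dark blue. HeCo 15 had the lowest normalized signal of both genes, and on the second Hes5 probe and on Hes1 the groups separated along the vertical axis.

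The Hey genes, which encode related repressors known from blood vessels and heart as well as from neural progenitors, had smaller differences than Hes5 and Hes1, or the opposite sign. Hey1 (ILMN_2690596) read 9.50, 9.67 and 9.80 at the lowest, median and highest in HeCo, against 9.59, 9.74 and 9.91 in wild type. The groups overlapped over most of their range, with a difference of -0.08 (SE 0.06), or -0.04 without HeCo 7 and HeCo 16. Hey2 (ILMN_2657207) read 6.29, 6.36 and 6.73 in HeCo, against 5.97, 6.39 and 6.76 in wild type, a difference of 0.11 (SE 0.10). Without HeCo 7 and HeCo 16 it was 0.14. Its second probe (ILMN_2657210) differed by 0.12 (SE 0.12). Heyl (ILMN_1213139) was close to background, with 6 of 8 HeCo arrays and 2 of 8 wild-type arrays above the detection limit. It read 4.91, 5.01 and 5.35 in HeCo, against 4.62, 4.70 and 5.16 in wild type. All 8 HeCo arrays lay above the wild-type mean, against 3.19% of genes, and the 2 groups overlapped. As Heyl passed the filter mainly through HeCo arrays, nothing is read from this count. Its difference of 0.24 (SE 0.10) was 0.23 without HeCo 7 and HeCo 16 and 0.11 without background correction, and gives no exact size. Endothelial and mural markers, which mark the vessels, had a median difference close to 0 over 14 measured genes of 16, with 7 positive and 7 negative (6 and 8 without HeCo 7 and HeCo 16); 0 passed (limma), and 1 was lower at an unadjusted p under 0.05. The part of vessel cells in the Hey values was not tested. Their summed linear signal was 5500 to 7350 on HeCo arrays and 5969 to 8014 on wild-type arrays.

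Promoters of Hes5 and Hey2 are shown because both hold the RBPJ core sequence on each strand while only one of the genes was lower in HeCo. RefSeq promoter entries (build GRCm38.p6, 250 bases before to 50 after a start site) matched 7 of the 10 members, with 9 promoters. They were searched for GTGGGAA on both strands, which reads TTCCCAC on the other strand and cannot overlap it. Capitals mark the matches.
Hes5 promoter, chr4:154960673-154960972, plus strand: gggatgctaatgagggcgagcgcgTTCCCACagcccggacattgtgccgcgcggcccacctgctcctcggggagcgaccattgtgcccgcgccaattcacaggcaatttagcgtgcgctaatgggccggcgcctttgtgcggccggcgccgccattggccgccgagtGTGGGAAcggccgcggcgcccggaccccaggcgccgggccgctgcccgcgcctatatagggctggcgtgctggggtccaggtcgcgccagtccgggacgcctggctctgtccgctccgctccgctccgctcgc
Hey2 promoter, chr10:30842734-30843033, minus strand: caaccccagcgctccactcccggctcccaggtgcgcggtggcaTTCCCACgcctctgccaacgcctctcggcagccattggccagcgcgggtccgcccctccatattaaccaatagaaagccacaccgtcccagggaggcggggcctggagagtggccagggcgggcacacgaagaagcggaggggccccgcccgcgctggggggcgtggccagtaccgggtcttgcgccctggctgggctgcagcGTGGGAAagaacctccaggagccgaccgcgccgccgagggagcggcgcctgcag
In the Hes5 promoter the matches began 226 and 83 bases before the start site, and in the Hey2 promoter 207 and 4 bases before it. One of the Psen2 promoters held 1 match, 89 bases before its start. No match was found in these windows for Nrarp, Dll1, Notch1 or Dtx1. Hes1, Hey1 and Heyl had no promoter entry and were not searched. Of 32851 promoters of the same length, 6.38% held at least 1 match, 0.256% held 2 or more and 0.1005% held a match on each strand. A match of these letters is a description of the sequence and not a bound site.

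The feedback genes Nrarp and Dtx1 had lower means in HeCo, with smaller differences than Hes5 and Hes1. The same held for Hey1, Psen2 and Notch1, so this is not particular to feedback genes. Nrarp, a Notch target whose protein binds the receptor's intracellular domain and dampens the signal, read 9.27, 9.60 and 9.77 at the lowest, median and highest in HeCo, against 9.60, 9.75 and 10.13 in wild type. The groups overlapped, and 4 of 8 HeCo arrays lay below every wild-type array. The means were 9.59 ± 0.16 (SD, n = 8) in HeCo and 9.79 ± 0.19 (SD, n = 8) in wild type, a difference of -0.20 (SE 0.08). It was -0.21 without HeCo 7 and HeCo 16, -0.06 within title numbers 1 to 8 and -0.35 within 9 to 16. Dtx1, which encodes a Deltex ubiquitin ligase acting on Notch receptors, read 8.19, 8.49 and 8.62 in HeCo, against 8.33, 8.53 and 8.85 in wild type. Its difference was -0.10 (SE 0.08), and -0.05 without HeCo 7 and HeCo 16.

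The group means of the ligand and the receptor lay within 1 within-group SD of each other. Dll1, a ligand carried by cells on their way to become neurons, read 6.86, 7.04 and 7.18 in HeCo, against 6.73, 6.93 and 7.15 in wild type (difference 0.09, SE 0.08). Notch1, the receptor of radial glia, read 7.41, 7.83 and 8.01 in HeCo, against 7.39, 7.84 and 8.22 in wild type (difference -0.04, SE 0.12). Without HeCo 7 and HeCo 16 the differences were 0.09 for Dll1 and -0.05 for Notch1. The sign of the Notch1 difference changed with the arrays used, between -0.12 and 0.03 within the sets by description number. Psen2 encodes a presenilin, the catalytic subunit of gamma-secretase. Its brighter probe (ILMN_2941992) read 5.92, 6.37 and 6.60 in HeCo, against 6.41, 6.59 and 7.09 in wild type, with 5 of 8 HeCo arrays below every wild-type array. The difference of -0.26 (SE 0.11) was -0.16 without background correction and -0.19 without HeCo 7 and HeCo 16. Wild type 10 was the highest array by a wide margin, and without it the difference was -0.19. The other Psen2 probe (ILMN_1213684), annotated to another transcript record, exceeded background on 2 of 8 HeCo arrays, against 0 of 8 in wild type, and gave no usable level.

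**Figure D3:**
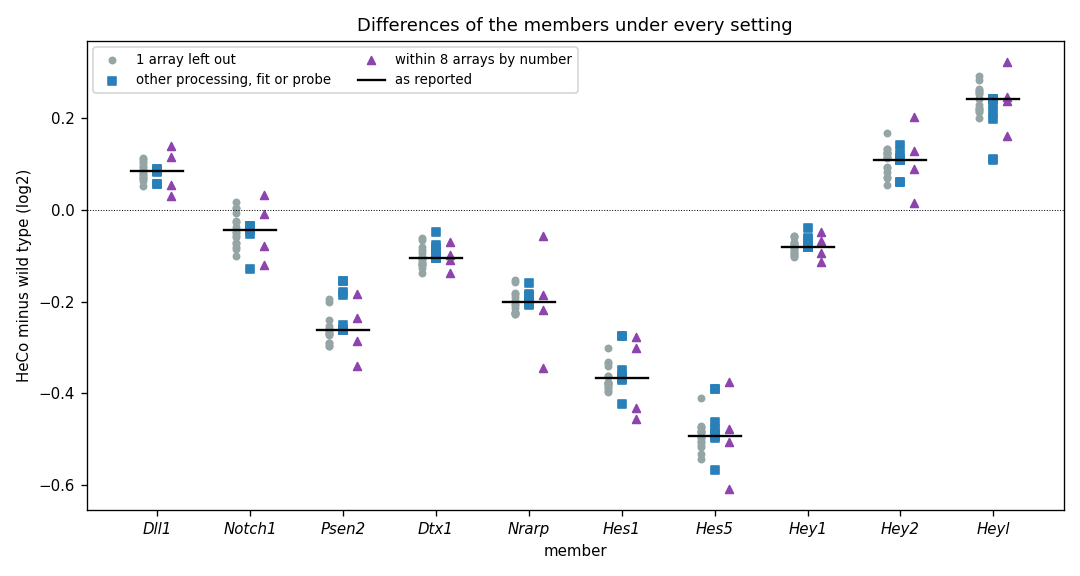
Log2 difference of each member (vertical axis, HeCo minus wild type) as reported (black line) and with 1 array left out (grey), with other processing, fits or probes (blue) and within sets of 4 against 4 arrays (purple). Hes5 and Hes1 stayed between -0.61 and -0.28 in each of these settings, and Notch1 crossed 0.

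The other genes of the pathway were read from lists made by function. Of 48 genes for ligands, receptors, receptor processing, ligand endocytosis, the nuclear complex and receptor turnover, 34 were measured. None passed in either direction (limma adjusted p over all genes), against 0.0565% of all genes; at an unadjusted p under 0.05 there were 2 higher and 1 lower. Their median difference was 0.03, with 22 genes positive and 12 negative, against 5115 positive of 10624 over all genes. Named below are the 2 genes of each list with the smallest p.

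Among ligands the non-canonical Dlk1 differed by -0.20 (SE 0.11), its second probe by -0.34 (SE 0.13), and Jag2 by 0.03 (SE 0.08). The receptors Notch3 and Notch4, known from mural and endothelial cells, differed by -0.06 (SE 0.12) and 0.08 (SE 0.07). In receptor processing 9 of 14 genes were measured, led by the gamma-secretase subunit Aph1a at -0.11 (SE 0.08), whose second probe had the opposite sign at 0.16 (SE 0.14), and by the Fringe glycosyltransferase Mfng at 0.13 (SE 0.11). The ligase Mib1, which drives the endocytosis of Notch ligands, differed by 0.24 (SE 0.09), and Neurl1a of the same function by -0.07 (SE 0.08). In the nuclear group the Groucho co-repressor Tle2 differed by -0.23 (SE 0.10), with -0.08 (SE 0.11) on its second probe, and the co-activator Maml2 by 0.12 (SE 0.10). In receptor turnover Fbxw7, the ubiquitin ligase subunit that marks the intracellular domain for decay, differed by 0.27 (SE 0.10) and by 0.36 (SE 0.11) on its second probe, and Dtx2 by -0.10 (SE 0.07). Several core genes were not well above background on any array, among them Rbpj on 3 probes, Notch2 on 2 and Jag1, Dll3 and Lfng on 1 each, so that no level can be given for them. Without HeCo 7 and HeCo 16 several of these differences were smaller, with Dlk1 at -0.05, Mfng at 0.02, Maml2 at 0.07, Notch3 at -0.03 and Neurl1a at 0.01, the last with the sign turned, while Jag2 was at 0.06. The median of the 3 measured ligands was 0.04 then, against -0.01 over 16 arrays, and that of the 3 ligand endocytosis genes 0.01 against -0.03.

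**Figure D4:**
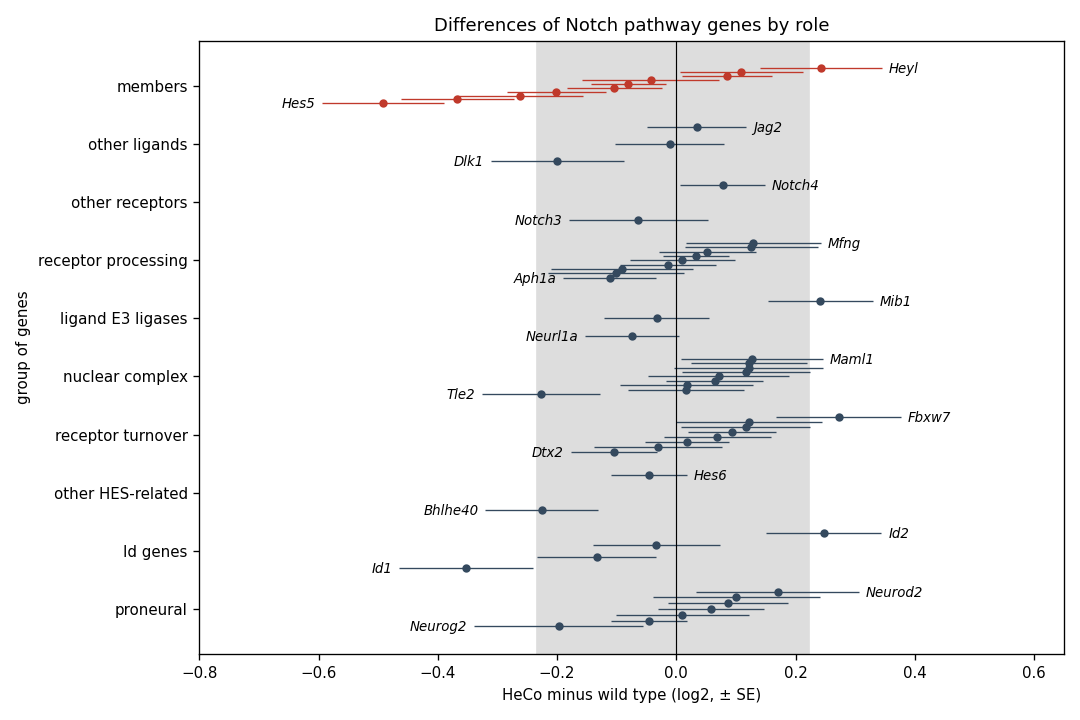
Log2 difference of each measured pathway gene (horizontal axis, HeCo minus wild type, bars for SE) by role, with the 10 members in red; the lowest and highest gene of each role is named and the grey band holds the middle 95% of all genes tested. Among the genes shown Hes5, Hes1, Psen2 and Id1 lay below the band, and Heyl, Mib1, Fbxw7 and Id2 above it.

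Genes that HES proteins act on or resemble were read in the same way. Of 14 proneural and commitment genes 7 were measured and 0 passed (limma, 0 also at an unadjusted p under 0.05), with a median difference of 0.06. The proneural factor Neurog2, which HES1 is known to repress, differed by -0.20 (SE 0.14), and the neuronal factor Neurod2 by 0.17 (SE 0.14). Of 7 other HES-related genes 2 were measured, with 0 passing and 1 lower at an unadjusted p under 0.05. Bhlhe40, a repressor tied to the clock and to hypoxia, differed by -0.23 (SE 0.09), and Hes6, which antagonizes HES1, by -0.05 (SE 0.06), with 0.10 and 0.08 on its other probes. Id genes encode inhibitors of basic helix-loop-helix factors, and all 4 were measured without a call (1 higher and 1 lower at an unadjusted p under 0.05). Id1 read 7.93, 8.53 and 8.76 at the lowest, median and highest in HeCo, against 8.33, 8.89 and 9.03 in wild type, a difference of -0.35 (SE 0.11, limma adjusted p = 0.508). Id2 had the opposite sign at 0.25 (SE 0.10, limma adjusted p = 0.648), with 0.19 and 0.28 on its other probes. Without HeCo 7 and HeCo 16 the proneural median was -0.03, opposite in sign, with Neurog2 at -0.32 and Neurod2 at 0.07, while Hes6 was at -0.10 and Id2 at 0.15.

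Markers of radial glia, the cells that express Hes1 and Hes5, had differences of -0.22 to 0.14 on the probe that stands for each gene. Other probes could lie outside this range. Ednrb differed by -0.02 on its brightest probe and by 0.31 (SE 0.15) and 0.13 (SE 0.10) on its others. Of 18 markers 16 were measured, 0 passed (limma; 2 were lower at an unadjusted p under 0.05), 12 had a negative difference and the median was -0.03. The intermediate filament gene Nes differed by -0.18 (SE 0.07) on its brighter probe and 0.01 (SE 0.11) on the other, and the matrix gene Tnc by -0.22 (SE 0.10). Without HeCo 7 and HeCo 16 the median of the 16 was -0.05, with 10 negative. Their summed linear signal was 46204 to 58402 on HeCo arrays and 46760 to 54942 on wild-type arrays, and all 16 were detected on every array. Pax6 and Emx2, which define cortical radial glia, were not well above background on any array. The part of progenitor number in the Hes values was not tested.

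Lists for other cells of the brain held 0 calls each (limma). At an unadjusted p under 0.05 there was 1 lower astrocyte gene and 1 higher cortical gene, 2 higher and 1 lower oligodendrocyte lineage genes, 2 lower ependymal genes and 3 lower caudal genes, with 0 in the neuronal and dividing-cell lists. Dividing-cell genes had a median of 0.06 over 10 genes (Ccne2 0.17, Ccnd1 -0.15), pan-neuronal genes of -0.00609 over 8 (Dcx 0.13, Gap43 -0.10) and cortical genes of 0.16 over 3 (Tbr1 0.36, Emx1 0.16). Astrocyte markers had a median of -0.08 over 6 (Aldh1l1 -0.18, Aqp4 -0.33), oligodendrocyte lineage markers of -0.02 over 8 (Sox10 0.26, Mag -0.35) and ependymal markers of -0.12 over 6 (Tppp3 -0.42, Spag6l -0.15). In the vessel list Sox18 differed by -0.30 and Cdh5 by 0.17. The second probe of Cdh5 differed by -0.03 and that of Spag6l by -0.02. The markers of diencephalon, midbrain and hindbrain had a median of -0.68 over 16, with Hoxb2 at -0.62 and Slc6a3 at -0.74, and their summed signal was 1964 to 8877 on HeCo and 5548 to 8154 on wild-type arrays. HeCo 7 and HeCo 16 had the 2 lowest sums. Without them the median of these 16 markers was -0.02, with 7 positive and 9 negative, Hoxb2 at -0.49 and Slc6a3 at -0.13, so the value of -0.68 rests on those 2 arrays. Without them the median was also -0.01 for dividing-cell genes, 0.02 for pan-neuronal genes and 0.03 for oligodendrocyte lineage markers, each with the sign turned, 0.06 for cortical genes (Tbr1 0.20, Emx1 0.05) and -0.04 for astrocyte markers (Aqp4 -0.05), with Mag at -0.14 and Gap43 at -0.04. Without HeCo 7 and HeCo 16 Hes5 differed by -0.57 and Hes1 by -0.42, against -0.49 and -0.37 over 16 arrays. The part of brain regions in the Hes values was not tested.

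The members were also compared array by array, as deviations from their group mean, which leaves the genotype difference out. The 2 Hey2 probes deviated together (Pearson's r = 0.80, permutation p = 0.00037; Spearman's rho = 0.69, permutation p = 0.00575; n = 16 arrays), and r was 0.61 without the 2 arrays farthest from the median. Here and below these are the arrays farthest from the median of the first-named gene, or of the first probe. For the 2 Hes5 probes r was 0.76 (permutation p = 0.00712) and rho 0.47 (permutation p = 0.0742), and r was 0.82 among HeCo and 0.64 among wild-type arrays, and 0.69 and 0.84 within the sets by description number. Without the 2 arrays farthest from the median r was 0.27, so over all arrays much of it rests on those 2. Among the 45 pairs of members 9 had an unadjusted permutation p under 0.05 for r and 0 passed after Benjamini-Hochberg adjustment (two-sided, 100000 resamples within groups). The smallest p belonged to Nrarp and Notch1, with r = -0.70 (permutation p = 0.00518, adjusted p = 0.159) and rho = -0.67 (permutation p = 0.00832, adjusted p = 0.171). That r was -0.57 without the 2 farthest arrays and -0.72 and -0.80 within the sets by description number. Hes1 and Hes5 had r = 0.58 (permutation p = 0.0469, adjusted p = 0.225) but rho = 0.23 (permutation p = 0.416, adjusted p = 0.721). Their r was 0.82 among HeCo and 0.08 among wild-type arrays, and 0.22 without the 2 arrays farthest on Hes1, so much of it rests on those arrays. Within the sets by description number it was 0.36 and 0.78. Hey1 and Hey2 had r = 0.64 (permutation p = 0.0106, adjusted p = 0.159) and rho = 0.67 (permutation p = 0.00712, adjusted p = 0.171), with 0.70 without the 2 farthest arrays and 0.72 and 0.65 within the sets.

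The genes most like Hes5 over the 16 arrays by these deviations were Basp1 (r = 0.93, rho = 0.73), Tmem158 (0.92, 0.68), Eid2 (0.90, 0.71), Igfbp2 (0.89, 0.72) and Arf5 (0.88, 0.60). Without HeCo 15 their r was 0.73 to 0.87. The genes most like Hes1 were Ptar1 (r = 0.83, rho = 0.69), Serpinh1 (0.82, 0.82), Apold1 (0.80, 0.87), Dmap1 (0.79, 0.78) and Txndc11 (0.78, 0.64), with r of 0.64 to 0.85 without HeCo 15. These genes are the extremes of all genes tested and share the same 16 arrays, so the values describe likeness only. The lists for Hes5 and Hes1 had no gene in common. None of the 10 differed between the groups at an adjusted p of 0.05, and their differences ran from -0.34 for Apold1 to 0.14 for Txndc11.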

How the data were processed

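The arrays had been hybridised in 1 colour with biotin-labelled RNA, per the labels. The deposited table of the whole series gives a linear signal intensity and a detection p-value for each probe and array; these deposited intensities had unequal totals between arrays. The detection p-values deposited by the authors are multiples of 1/936. The submitters' processing notes name GenomeStudio, without a version. Deposited intensities of the series matrix matched quantile-normalized signals to within 0.00474 (log2) and served as an alternative. Its columns are linear, uncentred and have medians of 85.2.

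With R 4.3.3 and limma 3.58.1, signals were background-corrected and quantile-normalized (neqc, offset 16, with the negative control distribution estimated by detection p). Differences of dim members were larger with this correction than without it (Heyl 0.24 against 0.11). A probe was kept if at least 8 of 16 arrays had a detection p under 0.05 (18532 probes, 10624 genes). The probe with the highest mean stood for each gene. The platform annotation supplied gene symbols; 34885 probes had 1 symbol, 18 several and 10378 none listed, and were updated for 34807 probes through a RefSeq gene table of GRCm38.p6.

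HeCo was compared with wild type over all genes (lmFit, eBayes with trend, two-sided, Benjamini-Hochberg, threshold 0.05), with no covariate. A member's mean, SD and difference come from the same values. The fit was tested on simulated data. Plots were drawn with Python 3.11.15 and matplotlib 3.10.9. The number of arrays limits the precision.

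The members and all gene lists were chosen with earlier results of these data known. Besides the members, the 2 genes of each list with the smallest p are named, or up to 4 past the threshold, and the 5 genes most like Hes5 and Hes1. Genes with no annotated probe were not analysed here. Other genes named below background were chosen after their values were seen. Alternatives were other background correction, scaling, filters, array weights, numbers as blocks and arrays left out.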

Additional observations from a re-analysis of the deposited data

Results flagged for a closer look

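Of 26 groups of 8 arrays (13 probes, 2 genotypes), 3 had an array that lay far from the others by Dixon's criterion at the 95% level, where chance gives about 1 in 20. On the first Hes5 probe HeCo 15 had a log2 signal of 7.10, the lowest of its group, with the next array at 7.62. On the second Hes5 probe HeCo 15 was the lowest again at 6.72, with the next array at 7.12. In the signals as deposited HeCo 15 was not the lowest on either probe (273 and 225, with HeCo medians of 274 and 212). On the brighter Psen2 probe wild type 10 was the highest of its group at 7.09, with the next array at 6.67. HeCo 15 also had the highest mean deposited signal (598) and wild type 10 the lowest (375) of the 16 arrays; the part of this in the signals of Hes5 and Psen2 was not tested.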

How the results depend on the processing

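No paired analysis was possible because the title numbers are not shared between the groups. The 301 recomputed differences of members all stayed within 1 within-group SD of the reported value. That margin is wide for small differences, at 0.26 for Notch1 with a difference of -0.04. Hes5, Hes1, Hey1, Nrarp, Psen2 and Dtx1 were negative and Hey2, Heyl and Dll1 positive in every setting run, and Notch1 was negative in 26 of 30. With 1 array left out, Hes5 lay between -0.54 and -0.41 and Hes1 between -0.40 and -0.30. The limma adjusted p of Hes5, 0.0775 as reported, ran from 0.0178 to 0.999 over 30 settings. It was under 0.05 in 4 of them, with array weights (0.0331), without HeCo 7 and HeCo 16 (0.0298), without wild type 11 (0.0364) and with the principal component score as a covariate (0.0178, chosen after seeing the data). No other member reached 0.05 in any setting. In each setting where other pathway genes were counted, 0 passed. They were not counted with the component score or within the sets of 4 against 4 arrays. Over all genes the count of 6 became 15 with the component score. It was between 2 and 7 with 1 array left out: 2 without HeCo 5, HeCo 8 or wild type 2, and 3 without HeCo 15 or wild type 9. Over all probes the count of 16 became 8 with detection on all 16 arrays and 10 without a filter. With 1 array left out it was between 7 (without wild type 2) and 17; it was 9 without HeCo 5, HeCo 14 or wild type 3, and 10 without HeCo 13, wild type 4 or wild type 9. Heyl was dropped with detection on all 16 arrays. The number of probes tested differed under the 2 filters, and the cause of these moves was not tested. Dim probes (Heyl, the second Psen2 probe) have no exact size.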
